A study of Mus musculus with 6 samples.

Results

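The collagen genes were measured in livers of mice with and without SHMT2 in hepatocytes. They were taken as all rows whose mouse gene symbol has the form of Col, a number, a and a number, and that held at least 10 counts in at least 3 of the 6 livers. Of 44 such symbols among 49671 gene IDs, 32 met this rule, and 31 of these also passed edgeR's filter on low counts and were among the 16089 genes tested. The comparison of genotypes was described by class, with 8 fibrillar, 6 basement membrane, 6 FACIT and 12 other collagens meeting the rule.

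Collagens are triple-helical proteins of the extracellular matrix, each built from α chains that are encoded by separate genes. Fibrillar collagens form the load-bearing fibers that accumulate in a scarred liver, type IV collagens form the sheet-like network of basement membranes, and FACIT collagens sit on the surface of fibrils. In the liver, stellate cells, portal fibroblasts, endothelial cells and bile duct cells each make a part of this matrix, and hepatocytes are known as a source of type XVIII collagen, the precursor of endostatin.

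RNA of whole liver had been sequenced for 3 male SHMT2 fl/fl mice and 3 male SHMT2 HKO mice of the C57BL/6J background, labelled WT and KO in the deposited data. Both groups carry Shmt2 alleles with exons between loxP sites. Only the SHMT2 HKO mice carry Cre under the Albumin promoter, which is active in hepatocytes. From liver protein levels by age, the paper proposes that SHMT2 of non-parenchymal cells was not affected. RNA of whole liver does not give Shmt2 by cell type. All 6 mice ate the AMLN diet, a feed rich in fat, fructose and cholesterol that is used to induce fatty liver disease with fibrosis, from 4 weeks of age for 18 weeks and were 22 weeks old at harvest. The study asked how hepatic SHMT2 affects the course of this disease. The 3 samples of a group are described as separate mice, with no litter, cage or batch given, so p-values rest on the spread between these mice.

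The libraries held 23090837 to 34089722 counts on genes. Levels are given as CPM, the count scaled to a library of 1e6 counts, with library sizes scaled by edgeR's TMM method, and 3 counts, taken as the floor of detection, came to 0.0734 to 0.152 CPM in the different livers. Shmt2 stood at 94.6, 109 and 93.9 CPM in SHMT2 fl/fl livers 1, 2 and 3 and at 24.9, 28.3 and 19.3 CPM in SHMT2 HKO livers 1, 2 and 3, which follows the labels. Along the first principal component (68.5% of the variance) the genotypes were apart, and the second (16.7%) set SHMT2 HKO mouse 1 apart from the other SHMT2 HKO mice. All 7 hepatocyte markers examined were abundant in every liver, with summed levels of 50513 to 62346 CPM in SHMT2 fl/fl livers and 63830 to 93127 CPM in SHMT2 HKO livers.

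Collagen transcripts were lower in SHMT2 HKO livers across the fibrillar, basement membrane, beaded filament and network-forming types. Of the 31 genes tested, 21 fell, 1 rose and 9 did not pass an adjusted p of 0.05 by the quasi-likelihood test of edgeR, with Benjamini-Hochberg adjustment over all genes. Among all 16089 genes tested, 29.0% were called, 16.5% lower and 12.5% higher. The median log2 fold change (SHMT2 HKO over SHMT2 fl/fl) was -1.59 over the collagens and 0.03 over all genes. Every SHMT2 HKO liver lay below every SHMT2 fl/fl liver for 23 collagens, which held for 25.0% of all genes, and above for 2 collagens, which held for 21.9% of all genes. At the cutoff of the study's methods, a p under 0.05 with an adjusted p under 0.25, 22 collagens were lower and 2 were higher, against 21.8% and 19.5% of all genes. Because whole liver was sequenced, fewer cells of a collagen-producing type and less RNA per cell cannot be told apart.

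The scaling between libraries enters each of these fold changes, since the TMM factors were 1.13 to 1.21 for SHMT2 fl/fl libraries and 0.802 to 0.984 for SHMT2 HKO libraries. Without TMM, the median of all genes moved by -0.42, 4923 genes were called lower and 539 higher in place of 2651 and 2012, and 22 collagens were called lower and 0 higher. With library sizes taken from the ERCC spike-in RNAs, the median of all genes moved by -0.72, 2759 genes were called lower and 107 higher, and again 22 collagens were called lower and 0 higher. These RNAs took 1.47%, 1.84% and 1.42% of counts in SHMT2 fl/fl libraries 1, 2 and 3. In SHMT2 HKO libraries 1, 2 and 3 they took 2.75%, 2.31% and 1.35%. SHMT2 HKO library 3 thus lay below every SHMT2 fl/fl library, and the shift with ERCC scaling rests on SHMT2 HKO libraries 1 and 2. With upper-quartile scaling, 3039 genes were called lower and 1461 higher, with 21 collagens lower and 0 higher.

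**Figure D1:**
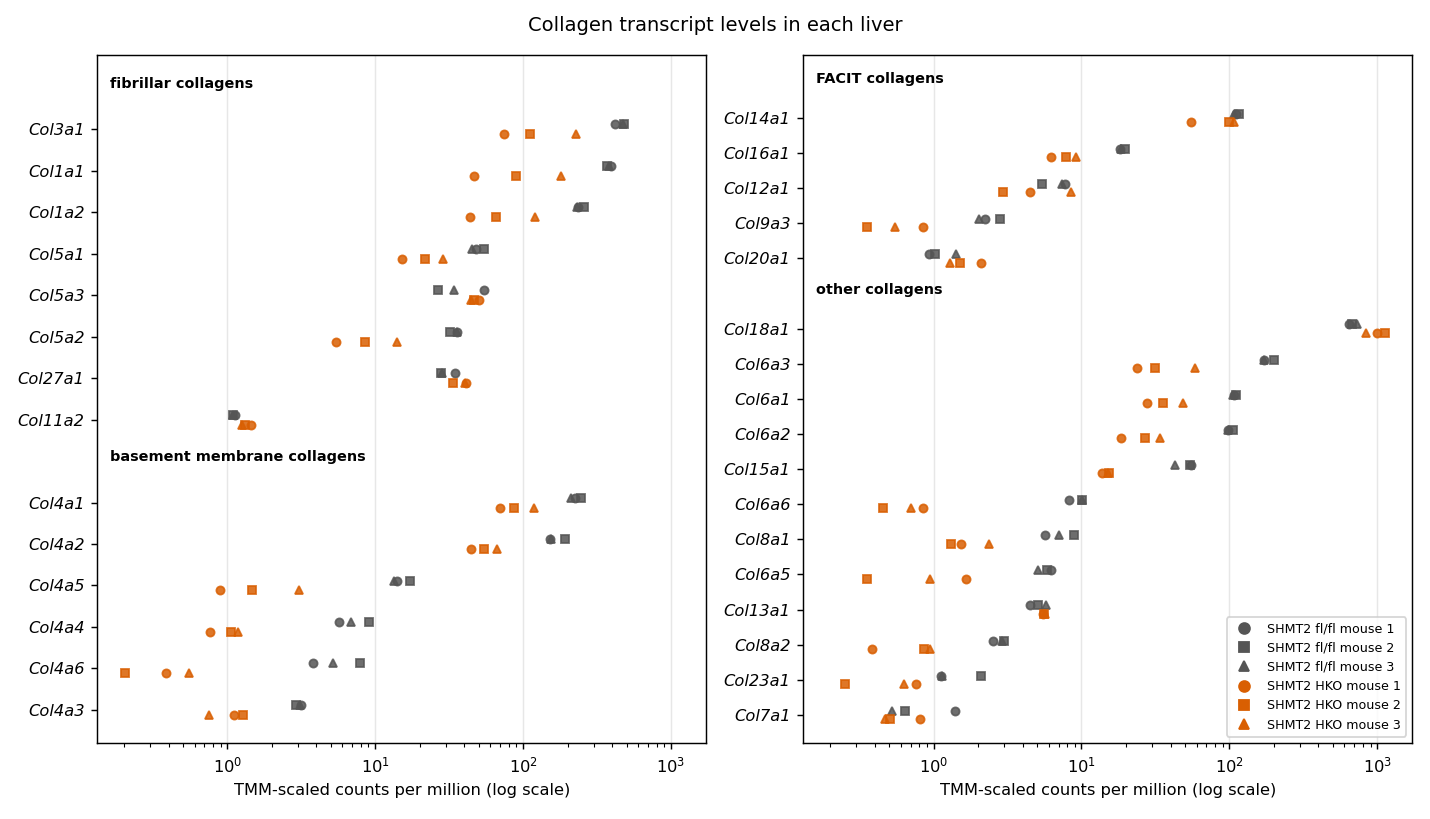
Level of each of the 31 collagen genes tested, in CPM with TMM scaling on a log axis, with 1 point for each liver (grey, SHMT2 fl/fl; orange, SHMT2 HKO; the marker shape gives the mouse number) and genes grouped by class. For 23 genes all orange points lie to the left of all grey points, and for Col18a1 and Col11a2 they lie to the right, although the fitted difference of both turns negative when libraries are scaled to the ERCC RNAs.

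The fibrillar collagens split into 5 genes that fell and 3 that did not pass the test. Col3a1, the single chain of type III collagen (ENSMUSG00000026043, chr1:45311538-45349706 of GRCm38, plus strand), stood at 415, 477 and 470 CPM in SHMT2 fl/fl livers 1, 2 and 3 and at 74.4, 112 and 228 CPM in SHMT2 HKO livers 1, 2 and 3. Col1a1, the major chain of type I collagen (ENSMUSG00000001506, chr11:94936224-94953042, plus strand), went in the same order from 396, 368 and 383 CPM to 46.3, 90.0 and 180 CPM. Col1a2, its partner chain (ENSMUSG00000029661, chr6:4504814-4541544, plus strand), went from 235, 257 and 232 CPM to 43.7, 65.8 and 120 CPM. None of these 3 genes overlapped between genotypes, and in each of them SHMT2 HKO mouse 3 had the highest and mouse 1 the lowest value of its group. The SD of Col1a1 was 13.6 CPM around a mean of 382 in SHMT2 fl/fl livers (n = 3) and 68.0 around a mean of 105 in SHMT2 HKO livers (n = 3).

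The log2 fold change was -1.72 (SE 0.37, edgeR adjusted p = 0.012) for Col3a1, -1.86 (SE 0.43, edgeR adjusted p = 0.0167) for Col1a1 and -1.66 (SE 0.33, edgeR adjusted p = 0.00858) for Col1a2. The call of Col1a1 was lost when any one of SHMT2 fl/fl mouse 1, 2 or 3 or SHMT2 HKO mouse 2 was left out, with edgeR adjusted p-values of 0.0557, 0.0549, 0.0538 and 0.0599, and its adjusted p ranged from 1.7e-05 to 0.121 over 15 alternative settings. When SHMT2 HKO mouse 3 was left out, Col1a1 came to -2.51 and Col3a1 to -2.31. The call of Col3a1 was lost in 1 of the 15 settings, the one with no filter beyond 1 count (edgeR adjusted p = 0.0769, range 1.04e-05 to 0.0769).

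Type V collagen is a minor component that copolymerizes with type I and limits the width of its fibrils. Col5a2 stood at 35.7, 32.1 and 35.7 CPM in SHMT2 fl/fl livers 1, 2 and 3 and at 5.43, 8.56 and 14.0 CPM in SHMT2 HKO livers 1, 2 and 3, a log2 fold change of -1.88 (SE 0.30, edgeR adjusted p = 0.0038). Col5a1 went from 48.3, 54.5 and 45.2 CPM to 15.1, 21.8 and 28.9 CPM, a log2 fold change of -1.17 (SE 0.22, edgeR adjusted p = 0.00669). The third chain, Col5a3, did not follow this pattern. It stood at 54.4, 26.6 and 34.0 CPM in SHMT2 fl/fl livers and at 50.0, 46.3 and 44.4 CPM in SHMT2 HKO livers, with overlapping groups and a log2 fold change of 0.29 (95% interval -0.26 to 0.84, edgeR adjusted p = 0.404). Without SHMT2 fl/fl mouse 1, which had the highest value of all 6, it was 0.63 (edgeR adjusted p = 0.038, range 0.038 to 0.818 over the alternatives), and it was -0.15 without TMM and -0.49 with ERCC scaling.

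The other fibrillar genes were Col27a1, a fibrillar collagen best known from cartilage, and Col11a2, a chain of the cartilage type XI collagen. Col27a1 averaged 30.3 ± 3.92 CPM (SD, n = 3) in SHMT2 fl/fl and 38.4 ± 4.09 CPM (SD, n = 3) in SHMT2 HKO livers, with a log2 fold change of 0.34 (95% interval 0.02 to 0.66, edgeR adjusted p = 0.0978) that became -0.08 without TMM and -0.36 with ERCC scaling. Col11a2 averaged 1.10 ± 0.0185 CPM (SD, n = 3) and 1.34 ± 0.0939 CPM (SD, n = 3), and although its groups did not overlap, the log2 fold change of 0.28 did not pass the test (edgeR adjusted p = 0.505) and was -0.15 without TMM and -0.48 with ERCC scaling.

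Bases upstream of the RefSeq start of 3 fibrillar genes are given to set a gene that fell, Col3a1, beside Col5a3 and Col27a1, which did not pass the test. Each runs 5′ to 3′ along the gene's own strand and ends at the base before the start (GRCm38.p6, RefSeq). Capitals mark the sequence TATAAA and the element GGGCGG, known as the GC box, on either strand. On the opposite strand the GC box reads CCGCCC.
Col3a1, chr1:45311418-45311537, plus strand: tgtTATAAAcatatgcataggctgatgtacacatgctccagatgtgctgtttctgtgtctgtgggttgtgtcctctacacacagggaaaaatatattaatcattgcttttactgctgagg
Col5a3, chr9:20815068-20815187, minus strand: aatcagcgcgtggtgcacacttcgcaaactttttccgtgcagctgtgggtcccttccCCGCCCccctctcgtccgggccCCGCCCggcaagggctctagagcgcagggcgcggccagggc
Col27a1, chr4:63215292-63215411, plus strand: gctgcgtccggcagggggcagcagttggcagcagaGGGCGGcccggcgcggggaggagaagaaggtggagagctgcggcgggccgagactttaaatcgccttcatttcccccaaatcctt
The shown stretch of Col3a1 held TATAAA and no GC box, that of Col5a3 held 2 GC boxes, and that of Col27a1 held 1 GC box. RefSeq promoter entries were matched for 26 of the 32 collagens, and Col1a1 and Col5a2 were not among them.

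The 6 type IV chains all fell, and the 3 largest changes were found among the 4 chains with the lower levels per exon length. Col4a1 and Col4a2, which together make the common basement membrane heterotrimer, are divergent neighbours on chromosome 8 (Col4a1, chr8:11198423-11312826, minus strand; Col4a2, chr8:11312805-11449287, plus strand), with 22 bases in common. Col4a1 stood at 225, 247 and 212 CPM in SHMT2 fl/fl livers 1, 2 and 3 and at 69.6, 87.3 and 118 CPM in SHMT2 HKO livers 1, 2 and 3, a log2 fold change of -1.31 (SE 0.20, edgeR adjusted p = 0.00304). Col4a2 went from 151, 192 and 154 CPM to 44.6, 54.1 and 66.2 CPM, a log2 fold change of -1.59 (SE 0.18, edgeR adjusted p = 0.00125). Both genes were separated between the genotypes with SHMT2 HKO mouse 3 again the highest of its group.

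Col4a5 and Col4a6 encode the chains of a less common type IV network and lie head to head on the X chromosome with 1308 bases between them. Col4a5 stood at 14.1, 17.2 and 13.4 CPM in SHMT2 fl/fl livers 1, 2 and 3 and at 0.891, 1.47 and 3.07 CPM in SHMT2 HKO livers 1, 2 and 3. Col4a6 went from 3.79, 7.94 and 5.19 CPM to 0.382, 0.203 and 0.551 CPM, of which the lowest value lies close to the floor. Their log2 fold changes were -3.02 (SE 0.39, edgeR adjusted p = 0.00187) and -3.85 (SE 0.43, edgeR adjusted p = 0.00125), and Col4a6 had the largest decrease among the 31 collagens tested. Without SHMT2 HKO mouse 3, the value of Col4a5 was -3.69.

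Col4a3 and Col4a4 are the chains that join Col4a5 in the basement membrane of the kidney glomerulus. Col4a4 stood at 5.65, 9.07 and 6.86 CPM in SHMT2 fl/fl livers 1, 2 and 3 and at 0.764, 1.06 and 1.18 CPM in SHMT2 HKO livers 1, 2 and 3, a log2 fold change of -2.83 (SE 0.28, edgeR adjusted p = 0.000943). Col4a3 averaged 3.04 ± 0.133 CPM (SD, n = 3) and 1.04 ± 0.265 CPM (SD, n = 3), a log2 fold change of -1.56 (SE 0.28, edgeR adjusted p = 0.00614), with 5.65% of its exon length overlapping a transcript on the other strand. All type IV chains but Col4a3 were highest in SHMT2 fl/fl mouse 2 among the 3 SHMT2 fl/fl livers. So were collagens of other types such as Col3a1, Col6a3 and Col8a1, while others such as Col1a1 and Col15a1 were highest in mouse 1. The share of all genes that were highest in mouse 2 was not computed. The summed level of 5 bile duct cell markers was also highest in mouse 2, at 244 CPM against 132 and 164 CPM in mice 1 and 3. Sums of portal fibroblast markers (657, 829 and 747 CPM in mice 1, 2 and 3) and myofibroblast markers (990, 1094 and 889 CPM) were highest in SHMT2 fl/fl mouse 2 too. In the myofibroblast list, Spp1 (876, 944 and 792 CPM) and Ccn2 (39.9, 76.9 and 21.8 CPM) were highest in mouse 2. Acta2, Tagln, Timp1, Tgfb1 and Lox were not. The sum of smooth muscle markers (32.4, 32.7 and 30.8 CPM) was nearly equal in mice 1 and 2. Those of the remaining cell type lists were not highest in mouse 2. The part of any cell type in these values was not tested.

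The genes Col4a4 and Col4a3 start in opposite directions with 71 bases between them, which are shown in full because both genes fell. The run is written along the minus strand, from the start of Col4a3 toward the start of Col4a4, and holds none of the motifs searched (GRCm38.p6).
Col4a4 to Col4a3, chr1:82586850-82586920, minus strand: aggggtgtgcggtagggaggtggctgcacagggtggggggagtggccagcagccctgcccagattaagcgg

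Among the FACIT collagens, 2 of the 5 genes tested fell and 3 did not pass the test, with a median log2 fold change of -0.37. Col14a1, which binds decorin and fibril surfaces, was the most abundant of them. It stood at 111, 115 and 108 CPM in SHMT2 fl/fl livers 1, 2 and 3 and at 54.8, 99.8 and 108 CPM in SHMT2 HKO livers 1, 2 and 3. The value of SHMT2 HKO mouse 3 lay just under the lowest SHMT2 fl/fl value, and the log2 fold change of -0.35 (95% interval -0.88 to 0.18) did not pass the test (edgeR adjusted p = 0.292). This interval does not hold the log2 fold changes of Col1a1 (-1.86) and Col3a1 (-1.72) in the same livers. It overlaps their 95% intervals of -2.86 to -0.86 and -2.57 to -0.87, and the difference between these genes was not tested. Over the 15 alternatives, the log2 fold change of Col14a1 ranged from -0.95 to -0.10 and was called in 0 of them. The edgeR, DESeq2 or limma-voom adjusted p ranged from 0.0625 to 0.599.

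Col16a1, which connects cells with fibrils, stood at 18.1, 19.8 and 18.4 CPM in SHMT2 fl/fl livers and at 6.20, 7.85 and 9.21 CPM in SHMT2 HKO livers (log2 fold change -1.27, SE 0.17, edgeR adjusted p = 0.002). Col9a3, a chain of the cartilage FACIT collagen type IX, is expressed at a low level in these livers. It went from 2.23, 2.82 and 2.04 CPM to 0.849, 0.354 and 0.551 CPM, a log2 fold change of -1.99 (SE 0.38, edgeR adjusted p = 0.00677), with 6.07% of its exon length overlapping Tcfl5 on the other strand. Col12a1, a stress-responsive FACIT collagen, stood at 7.78, 5.38 and 7.38 CPM in SHMT2 fl/fl livers and at 4.46, 2.94 and 8.50 CPM in SHMT2 HKO livers, so that SHMT2 HKO mouse 3 exceeded all others. Its log2 fold change was -0.37 (edgeR adjusted p = 0.489) and became -0.91 without SHMT2 HKO mouse 3 (edgeR adjusted p = 0.0357, range 0.0357 to 0.886 over the alternatives). Col20a1, at 1.12 ± 0.256 and 1.63 ± 0.402 CPM (SD, n = 3 each), overlapped between the groups with a log2 fold change of 0.54 (edgeR adjusted p = 0.258), which was -0.29 with ERCC scaling.

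Type VI collagen forms beaded microfilaments around cells, and all 5 of its tested chains fell. Col6a3, its largest chain, stood at 170, 199 and 171 CPM in SHMT2 fl/fl livers 1, 2 and 3 and at 23.6, 31.6 and 58.8 CPM in SHMT2 HKO livers 1, 2 and 3, a log2 fold change of -2.24 (SE 0.31, edgeR adjusted p = 0.00258). Col6a1 went from 108, 110 and 105 CPM to 27.5, 35.5 and 48.6 CPM, a log2 fold change of -1.53 (SE 0.20, edgeR adjusted p = 0.00177). Col6a2 went from 97.7, 105 and 98.4 CPM to 18.6, 26.9 and 34.0 CPM, a log2 fold change of -1.92 (SE 0.21, edgeR adjusted p = 0.00111). The 3 canonical chains thus had the same order of livers within the SHMT2 HKO group, lowest in mouse 1 and highest in mouse 3.

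The alternative chains Col6a5 and Col6a6, neighbours on chromosome 9, were rarer and fell too. Col6a6 stood at 8.22, 10.2 and 10.1 CPM in SHMT2 fl/fl livers and at 0.849, 0.456 and 0.708 CPM in SHMT2 HKO livers, a 13.9-fold lower level (log2 fold change -3.80, SE 0.27, edgeR adjusted p = 0.000639). Col6a5 went from 6.21, 5.83 and 5.09 CPM to 1.65, 0.354 and 0.945 CPM, a log2 fold change of -2.51 (SE 0.44, edgeR adjusted p = 0.00522). These genes differed from the canonical chains in the order of the SHMT2 HKO livers, with mouse 1 the highest of its group in both.

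Type VIII collagen is a short-chain network collagen of vessel walls and activated matrix-producing cells, and both of its chains fell. Col8a1 went from 5.65, 8.84 and 6.99 CPM in SHMT2 fl/fl livers 1, 2 and 3 to 1.53, 1.32 and 2.36 CPM in SHMT2 HKO livers 1, 2 and 3 (log2 fold change -2.03, SE 0.29, edgeR adjusted p = 0.0026). Col8a2 went from 2.52, 2.97 and 2.92 CPM to 0.382, 0.861 and 0.945 CPM (log2 fold change -1.94, SE 0.36, edgeR adjusted p = 0.00675). The membrane-spanning collagens Col13a1 and Col23a1 and the anchoring fibril collagen Col7a1 did not pass the test. Col13a1 had nearly equal means of 5.13 and 5.59 CPM (log2 fold change 0.12, 95% interval -0.30 to 0.54, edgeR adjusted p = 0.649), with -0.29 without TMM and -0.59 with ERCC scaling. Col23a1 lay lower in all 3 SHMT2 HKO livers with a log2 fold change of -1.38 (edgeR adjusted p = 0.0603), which passed without SHMT2 HKO mouse 1 (-1.65, edgeR adjusted p = 0.0388, range 0.0163 to 0.213 over the alternatives). Col7a1, at 0.852 ± 0.473 and 0.595 ± 0.184 CPM (SD, n = 3 each), overlapped between the groups (log2 fold change -0.52, edgeR adjusted p = 0.457) and turned to 0.04 without SHMT2 fl/fl mouse 1.

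The multiplexin collagens, which carry long interrupted helices and end in fragments of the endostatin type, did not change together. Col15a1 stood at 55.4, 54.4 and 42.9 CPM in SHMT2 fl/fl livers 1, 2 and 3 and at 13.7, 15.4 and 15.1 CPM in SHMT2 HKO livers 1, 2 and 3, a log2 fold change of -1.79 (SE 0.14, edgeR adjusted p = 0.000639). Its SHMT2 HKO livers were close to each other, with an SD of 0.915 CPM around a mean of 14.7 (n = 3). Col18a1 (ENSMUSG00000001435, chr10:77052178-77166548, minus strand) stood at 643, 674 and 727 CPM in SHMT2 fl/fl livers and at 998, 1124 and 836 CPM in SHMT2 HKO livers. Its groups did not overlap, and it was the 1 collagen called higher, with a log2 fold change of 0.53 (SE 0.17, edgeR adjusted p = 0.0456) that turned to -0.24 with ERCC scaling (edgeR adjusted p = 0.662).

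The call of Col18a1 held in 4 of 15 alternative settings, with an edgeR, DESeq2 or limma-voom adjusted p from 0.00274 to 0.662. It was lost without SHMT2 fl/fl mouse 1, 2 or 3 (edgeR adjusted p = 0.150, 0.148 and 0.114) and without SHMT2 HKO mouse 1 or 2 (edgeR adjusted p = 0.0615 and 0.127). Without TMM, the log2 fold change was 0.10 (edgeR adjusted p = 0.553), while the median gene stood at -0.40. With ERCC scaling, the median gene stood at -0.69. A change of scaling moves all genes by about the same amount, so these settings do not test the place of Col18a1 relative to other genes.

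The stretch before the annotated gene start of Col18a1 at position 77166548, the 1 collagen called higher, is shown with capitals for GC boxes as above (GRCm38.p6). Its RefSeq start lies slightly downstream, at position 77166530. Which start of the gene was used in these livers was not measured.
Col18a1, chr10:77166549-77166650, minus strand: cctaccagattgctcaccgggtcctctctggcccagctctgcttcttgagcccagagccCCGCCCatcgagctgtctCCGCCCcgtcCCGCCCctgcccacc
These 102 bases held 3 GC boxes.

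**Figure D2:**
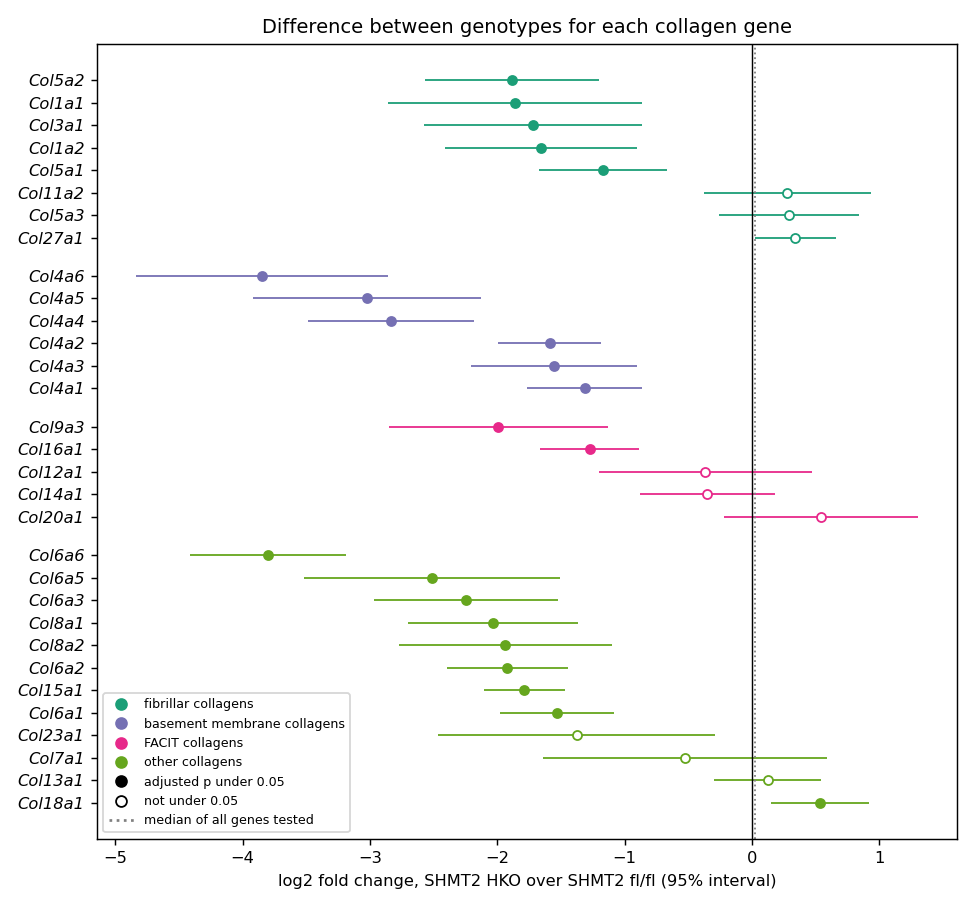
Log2 fold change of each collagen gene, SHMT2 HKO over SHMT2 fl/fl, with its 95% interval from edgeR's quasi-likelihood fit; filled points passed an adjusted p of 0.05 and the dotted line is the median of all genes tested. All 6 basement membrane genes lie between -3.85 and -1.31, while 5 fibrillar genes lie between -1.88 and -1.17 and 3 between 0.28 and 0.34, and these 3, like Col18a1, turn negative with ERCC scaling.

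By class, the median log2 fold change was -1.41 over 8 fibrillar genes, -2.21 over 6 basement membrane genes, -0.37 over 5 FACIT genes and -1.85 over 12 other collagens, against 0.03 over all genes tested. The counts called lower were 5, 6, 2 and 8. Differences between the classes were not tested, since the chains of a type are not independent of each other.

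The order of the collagens was taken per kilobase of merged annotated exons, which can be longer than the transcripts present. Merged exons came to 12426 bases for Col1a2 and 6563 for Col1a1, so the order depends in part on the annotation. On this scale Col18a1 was the most abundant collagen in both groups, with 97.1 ± 6.06 CPM per kb (SD, n = 3) in SHMT2 fl/fl and 140 ± 20.6 CPM per kb (SD, n = 3) in SHMT2 HKO livers. In SHMT2 fl/fl livers it was followed by Col1a1 at 58.2 ± 2.07, Col3a1 at 46.3 ± 3.46, Col4a1 at 30.6 ± 2.42, Col4a2 at 25.0 ± 3.49 and Col6a1 at 24.6 ± 0.571 CPM per kb (SD, n = 3 each). The last 2 of these did not differ beyond their spread. In SHMT2 HKO livers the order was Col1a1 at 16.0 ± 10.4, Col3a1 at 14.1 ± 8.16, Col14a1 at 12.5 ± 4.07 and Col4a1 at 12.3 ± 3.30 CPM per kb (SD, n = 3 each), and none of these 4 neighbours differed beyond their spread.

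Collagens together took 0.345%, 0.350% and 0.330% of gene counts in SHMT2 fl/fl livers 1, 2 and 3 and 0.126%, 0.151% and 0.194% in SHMT2 HKO livers 1, 2 and 3. Col18a1 alone made up 22.4%, 22.1% and 24.8% of the collagen counts in the SHMT2 fl/fl livers and 64.1%, 59.8% and 42.3% in the SHMT2 HKO livers. Types I and III (Col1a1, Col1a2 and Col3a1) made up 36.5%, 36.2% and 36.9% in SHMT2 fl/fl livers and 10.6%, 14.2% and 26.7% in SHMT2 HKO livers. These shares do not depend on the scaling between libraries. As a share of all gene counts, Col18a1 was at 0.0789% ± 0.00246 and 0.0843% ± 0.0050 (SD, n = 3 each), while the other collagens together took 0.263% ± 0.0130 and 0.0727% ± 0.0351 of gene counts (SD, n = 3 each). No test was run on these sums.

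**Figure D3:**
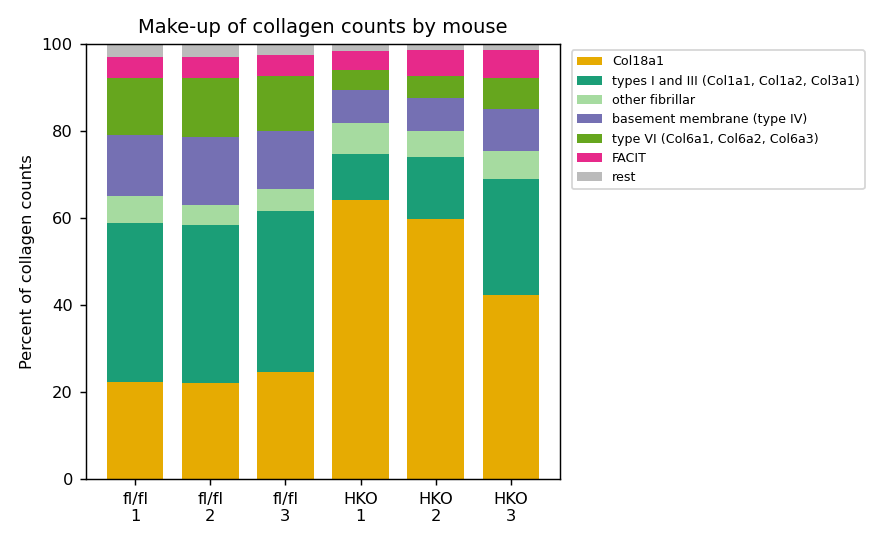
Share of all collagen counts, in percent, taken by Col18a1, types I and III, other fibrillar, type IV, type VI, FACIT and remaining collagens in each of the 6 livers (bars add to 100%). Col18a1 takes 22.1% to 24.8% in SHMT2 fl/fl livers and 42.3% to 64.1% in SHMT2 HKO livers, and SHMT2 HKO mouse 3 lies closest to the SHMT2 fl/fl livers.

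Whether chains of the same type changed by the same amount was asked from 5 ratios of counts per exon length within each liver, which are free of library scaling. The exon lengths set the level of a ratio but cancel in the difference between genotypes. The log2 ratio of Col6a3 to Col6a1 was -0.79, -0.59 and -0.75 in SHMT2 fl/fl livers 1, 2 and 3 and -1.68, -1.62 and -1.17 in SHMT2 HKO livers 1, 2 and 3, a difference of -0.78. That of Col5a1 to Col5a2 was 0.61, 0.94 and 0.51 against 1.65, 1.53 and 1.22, a difference of 0.78. Col6a1 over Col6a2 differed by 0.39 and Col4a1 over Col4a2 by 0.25. In these 4 ratios the groups did not overlap, which gave an exact permutation p of 0.1 (two-sided, 20 splits, adjusted p = 0.125 over 5 ratios), the smallest p that 3 mice against 3 allow, so none could pass 0.05. For Col1a1 over Col1a2 the ratios were 1.67, 1.44 and 1.64 in SHMT2 fl/fl livers and 1.0, 1.37 and 1.51 in SHMT2 HKO livers, which overlapped (difference -0.29, exact permutation p = 0.2, adjusted p = 0.2). Without SHMT2 HKO mouse 1, this difference was -0.14.

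**Figure D4:**
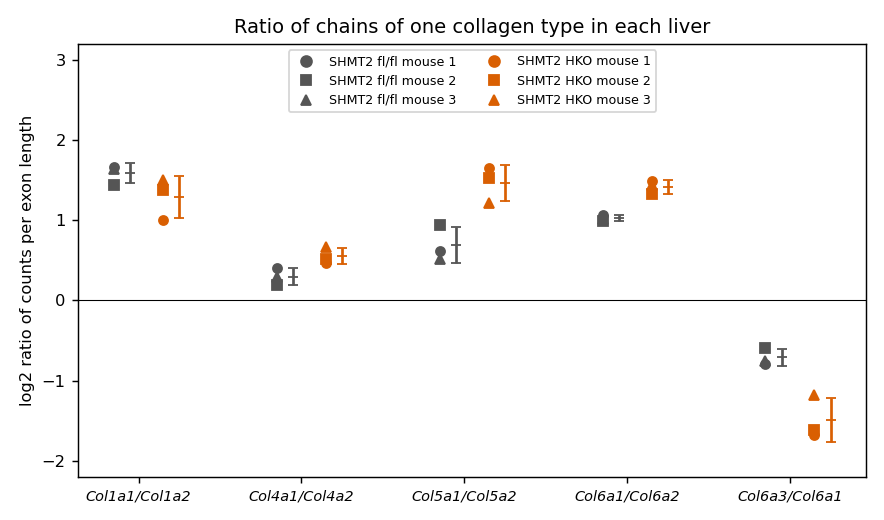
Log2 ratio of counts per exon length between 2 chains of the same collagen type in each liver, with the mean and SD of each genotype (n = 3 mice) beside the points. The groups are apart for Col4a1/Col4a2, Col5a1/Col5a2, Col6a1/Col6a2 and Col6a3/Col6a1 and overlap for Col1a1/Col1a2.

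The SHMT2 HKO livers were more uneven than the SHMT2 fl/fl livers, and in a recurring order. Of the 21 collagens that fell, SHMT2 HKO mouse 3 had the highest value of its group for 16, which held for 36.5% of all genes tested, and SHMT2 HKO mouse 1 had the lowest for 15, which held for 35.3%. The 5 that were not highest in mouse 3 were Col6a5, Col6a6, Col9a3, Col4a3 and Col15a1. Over all 31 collagens tested, mouse 3 was the highest of its group for 19 and mouse 1 the lowest for 17. The shares over all genes include genes that did not fall, and the shares among genes called lower were not computed. On the first principal component, SHMT2 HKO mice 1, 2 and 3 lay at 57.9, 53.2 and 26.9 and SHMT2 fl/fl livers at -52.7 to -42.0. Mouse 3 thus lay nearest to SHMT2 fl/fl over all genes too. Without SHMT2 HKO mouse 3 the median log2 fold change over the 31 collagens was -1.79, and without mouse 1 it was -1.46, with 22 called lower in both cases.

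The genes of collagen processing were taken from lists compiled from general knowledge of their functions. Of 21 tested genes for folding and modification in the endoplasmic reticulum, 7 were called lower and 5 higher, against 16.5% and 12.5% of all genes, with a median log2 fold change of -0.11. Those that fell included the prolyl hydroxylase family member P3h3 (-1.53), its complex partner P3h4 (-1.55), the cartilage-associated protein Crtap (-1.31) and the chaperone Fkbp10 (-1.80), with edgeR adjusted p-values from 0.00144 to 0.00362. The collagen chaperone Serpinh1, also known as HSP47, fell by 1.02 on the log2 scale (edgeR adjusted p = 0.00681). The 5 called higher, P4hb, Plod1, Tmem38b, Mia3 and Sec24d, had log2 fold changes of 0.40 to 0.67, which lay between -0.31 and -0.03 with ERCC scaling. When a mouse was left out, the number higher ranged from 1 (without SHMT2 fl/fl mouse 1 or 3) to 5, with 2 without SHMT2 fl/fl mouse 2 or SHMT2 HKO mouse 2 and 3 without SHMT2 HKO mouse 3. Over all genes the number higher ranged from 805 to 2521 in the same fits.

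Of 12 genes for propeptide removal and crosslinking, 6 were called lower and 1 higher, with a median of -0.98, and 3 lower and 0 higher without SHMT2 fl/fl mouse 1. The crosslinking enzyme Loxl1 fell by 2.46 on the log2 scale (SE 0.23, edgeR adjusted p = 0.000852). The protease Adamts2 (-1.56), which removes N-propeptides, and Pcolce (-1.45), which enhances the removal of C-propeptides by Bmp1, fell as well, with edgeR adjusted p-values of 0.0064 and 0.00302. Bmp1 itself was called higher at 0.57 (edgeR adjusted p = 0.0206), which was -0.20 with ERCC scaling, and the call was lost without SHMT2 fl/fl mouse 1 or 3 or SHMT2 HKO mouse 2 (edgeR adjusted p up to 0.0891).

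Among 13 fibril partners, 7 were called lower and 1 higher, with a median of -1.08 and 11 lower without SHMT2 HKO mouse 3. The small proteoglycans fibromodulin (Fmod, -2.59) and biglycan (Bgn, -1.59), the matricellular gene Thbs2 (-2.10) and the collagen-binding Sparc (-1.30) fell, with edgeR adjusted p-values from 0.000852 to 0.00349. Fn1, which hepatocytes also secrete as plasma fibronectin, was the 1 gene called higher, at 0.59 (edgeR adjusted p = 0.045), but -0.20 with ERCC scaling, and the call was lost in 5 of the 6 fits with a mouse left out, all but the one without SHMT2 HKO mouse 3.

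Of 9 collagen receptor genes, 5 were called lower and 0 higher, with a median of -1.22. These included the receptor tyrosine kinase Ddr1 (-2.79), the uptake receptor Mrc2 (-2.08), the fibroblast integrin chain Itga11 (-1.99) and the leukocyte receptor Lair1 (-1.22), with edgeR adjusted p-values from 0.00126 to 0.0037. Of 9 genes for collagen degradation, 3 were called lower and 0 higher, with a median of -0.53. These were the gelatinase Mmp2 (-2.59), its activator Mmp14 (-0.94) and the cysteine protease Ctsk (-2.10), with edgeR adjusted p-values from 0.000943 to 0.00222. The other 6 degradation genes did not pass the test.

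Markers of the cell types that a liver sample can hold were set beside the collagens, and the counts in each list can be read against the 16.5% of all genes called lower and the 12.5% called higher. The 5 bile duct cell markers (Krt7, Krt19, Epcam, Sox9 and Cftr) all fell, with summed levels of 132 to 244 CPM in SHMT2 fl/fl and 22.9 to 30.7 CPM in SHMT2 HKO livers. Of 8 portal fibroblast markers, 7 fell, among them Cd34, Eln and Dpt, with summed levels of 657 to 829 CPM and 173 to 263 CPM. Gas6 made the greater part of this sum in every liver, at 393 to 521 CPM and 129 to 185 CPM. The marker not called was Thy1 (-1.10, edgeR adjusted p = 0.189). Its level in SHMT2 HKO mouse 1, 8.11 CPM, lay within the SHMT2 fl/fl range of 7.62 to 9.63 CPM. Of 11 stellate cell markers, 4 were called lower (Cygb, Pdgfrb, Hand2 and Des) and 2 higher (Reln and Ecm1, with 0 called higher without TMM or with ERCC scaling), and Lrat, a defining marker of these cells, had a log2 fold change of 0.03 (edgeR adjusted p = 0.975). The summed stellate cell level was 560 to 585 CPM in SHMT2 fl/fl and 355, 476 and 562 CPM in SHMT2 HKO livers 1, 2 and 3. Mouse 3 reached the SHMT2 fl/fl range of this sum, which adds genes that moved in opposite directions. In mouse 3, Ecm1 stood at 189 CPM and Reln at 76.4 CPM, against 98.8 to 103 and 27.4 to 32.6 CPM in SHMT2 fl/fl livers. Cygb stood at 47.0 CPM against 136 to 162 CPM, and Pdgfrb, Hand2 and Des also lay below every SHMT2 fl/fl liver. When a mouse was left out, 2 stellate cell markers were called lower without SHMT2 fl/fl mouse 2 or SHMT2 HKO mouse 2, and 1 was called higher without SHMT2 fl/fl mouse 3.

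Of 7 genes listed as myofibroblast markers, 4 were called lower (Spp1, Timp1, Tgfb1 and Lox, the last also among the crosslinking genes). Without SHMT2 fl/fl mouse 1, 2 of the 7 genes were called lower. RNA of whole liver does not show which cell type expressed a listed gene, so these calls are not a measure of myofibroblasts. Summed levels were 889 to 1094 CPM in SHMT2 fl/fl and 143 to 296 CPM in SHMT2 HKO livers. Spp1 made the greater part in every liver, at 792 to 944 CPM and 104 to 215 CPM, so the sum mainly follows this 1 gene. Acta2, which defines these cells, had a log2 fold change of -0.59 (edgeR adjusted p = 0.0963). Tagln (-0.23, edgeR adjusted p = 0.340) and Ccn2 (-1.31, edgeR adjusted p = 0.121) were not called either. Of 5 smooth muscle markers 2 were called lower (30.8 to 32.7 against 17.8 to 21.3 CPM summed) and 0 without SHMT2 fl/fl mouse 2 or 3 or SHMT2 HKO mouse 2, and 1 without SHMT2 fl/fl mouse 1 or SHMT2 HKO mouse 3. Of 4 mesothelial markers 0 were called by edgeR, DESeq2 or limma-voom and 0 had an unadjusted edgeR p under 0.05, with 6.52 to 18.5 against 5.08 to 13.7 CPM summed, while 1 was called lower with ERCC scaling (Lrrn4) and 1 without SHMT2 HKO mouse 1 (Gpm6a).

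Of 6 lymphocyte markers 3 fell (16.0 to 20.4 against 5.31 to 7.47 CPM summed). Of 8 Kupffer cell and macrophage markers 2 were called lower (Cd68 and Trem2) and 3 higher (Clec4f, Timd4 and Vsig4), with 179 to 320 against 310 to 382 CPM summed, and 1 or 4 were lower when single mice were left out, 1 without SHMT2 fl/fl mouse 1 or 3 or SHMT2 HKO mouse 2 and 4 without SHMT2 HKO mouse 3. Of 7 sinusoidal endothelial markers 3 were called higher (Clec4g, Oit3 and Stab2, but 0 with ERCC scaling, and 1 higher and 2 lower without TMM), with 238 to 275 against 287 to 364 CPM summed and 5 called higher without SHMT2 HKO mouse 1. Of 4 Schwann cell markers 1 was called lower, Prx, which was called in 1 of 6 fits with a mouse left out, the one without SHMT2 fl/fl mouse 1, with 8.04 to 12.8 against 8.19 to 12.5 CPM summed. Of 7 hepatocyte markers 2 were called higher, Apob and Ttr, both below 0 with ERCC scaling and with 0 to 4 such calls when a mouse was left out, 0 of them without SHMT2 fl/fl mouse 1, 2 or 3 or SHMT2 HKO mouse 2, 1 without SHMT2 HKO mouse 1 and 4 without SHMT2 HKO mouse 3. Of 6 pancreatic acinar markers, Cpa1 had 0 counts in all 6 livers, Ctrb1, Prss2 and Pnlip had 0 to 2 and Cela2a 5 to 24, while Cela1 stood at 7.68 to 13.7 CPM with a log2 fold change of -0.34 (edgeR adjusted p = 0.299). The part of any of these cell types in the collagen values was not tested.

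**Figure D5:**
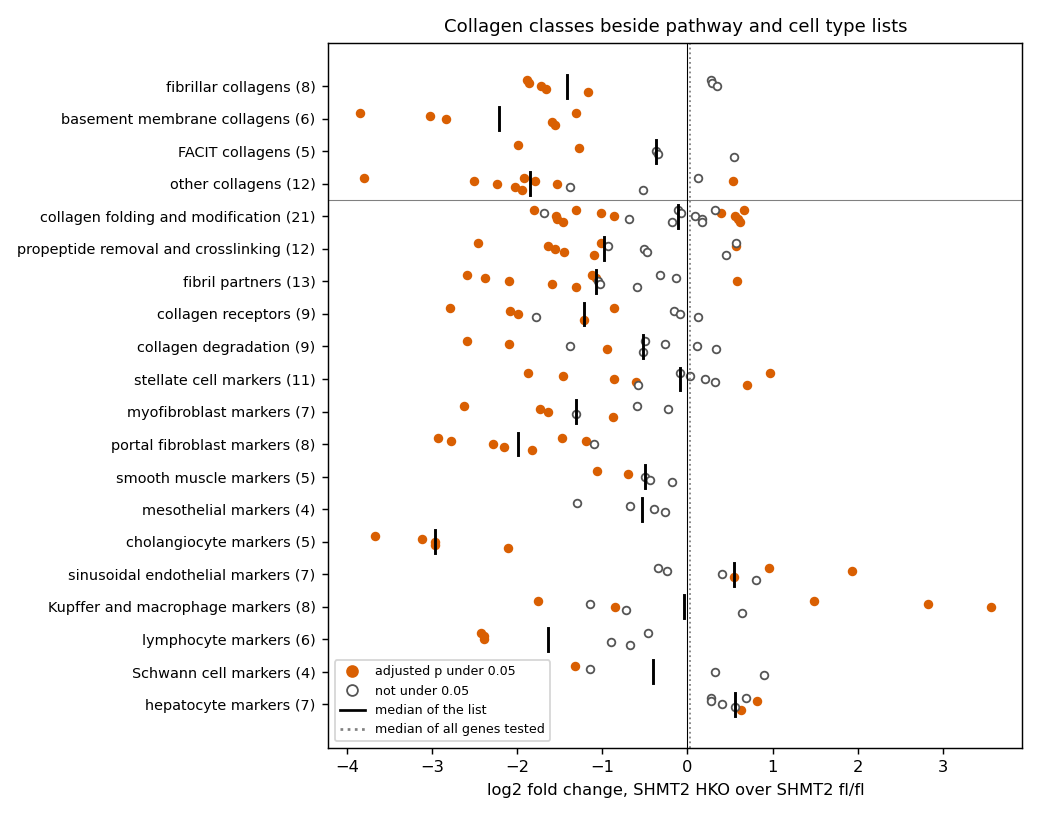
Log2 fold change (SHMT2 HKO over SHMT2 fl/fl) of the genes of each collagen class, of the collagen processing lists and of the cell type marker lists, with the number of genes tested in parentheses, filled points for an adjusted p under 0.05, a black bar for the median of the list and a dotted line for the median of all genes. Medians of the basement membrane collagens (-2.21), portal fibroblast markers (-1.99) and bile duct cell markers (-2.97) lie furthest to the left, while those of the stellate cell markers (-0.08) and folding genes (-0.11) lie near 0; positive medians such as that of the hepatocyte markers (0.56) turn negative with ERCC scaling (-0.26).

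Several collagen genes are neighbours in the genome. Col3a1 and Col5a2, which both fell, lie tail to tail on chromosome 1 with 24614 bases between them, and Col6a6 and Col6a5 lie in the same direction on chromosome 9 with 27917 bases between them. Collagen genes further apart on a chromosome did not always change together, and genes of other families between them were not looked at. Col6a2, Col6a1 and Col18a1 follow each other on the minus strand of chromosome 10, with 85161 and 326009 bases between them, and the first 2 fell while Col18a1 did not. Col9a3, which fell, and Col20a1, which did not pass the test, are 364345 bases apart on chromosome 2.

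In the 250 bases upstream of the RefSeq starts, 4 short motifs were searched on both strands, none of which holds another. GGGCGG was found for 11 of the 17 matched collagens that fell, 5 of 7 that did not pass the test and Col18a1, against 32.7% of 32851 promoters. CCAAT was found for 5 of 17, 2 of 7 and Col18a1, against 33.8% of promoters. TATAAA was found for 1 of 17 (Col3a1), 2 of 7 and not for Col18a1, against 12.4%. TGANTCA, the AP-1 motif, was found for 1 of 17 (Col6a1), 0 of 7 and not for Col18a1, against 6.75%. These matches describe the sequence and do not show that a factor binds there.

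Col9a2 met the count rule with 12, 6 and 10 counts in SHMT2 fl/fl livers 1, 2 and 3 and 10, 1 and 4 in SHMT2 HKO livers 1, 2 and 3, but did not pass edgeR's filter and was not tested. The 12 symbols that failed the rule were Col2a1, Col6a4, Col9a1, Col10a1, Col11a1, Col17a1, Col19a1, Col22a1, Col24a1, Col25a1, Col26a1 and Col28a1, with 0 to 26 counts in a liver. Differences in these genes were not tested.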

How the data were processed

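Total liver RNA of 3 SHMT2 fl/fl and 3 SHMT2 HKO mice was analysed. The authors made libraries with the NEBNext Ultra kit, sequenced read pairs on an Illumina HiSeq instrument, trimmed them with Trimmomatic 0.36 and aligned them with STAR 2.5.2b to GRCm38 with the ERCC sequences; the submitters' processing notes also name featureCounts and Subread 1.5.2. The values deposited by the authors are raw counts per gene, without normalization, and the use of strand is not given in the sources used here. Groups came from the deposited labels WT and KO. The 92 ERCC rows entered neither library sizes nor tests, and 259 gene IDs without an entry in the GENCODE annotation of GRCm38 held 0.0116% of gene counts.

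The whole table passed through filterByExpr (edgeR 4.0.16, R 4.3.3) and TMM scaling, and genotypes were compared by the quasi-likelihood F test (glmQLFit, robust, two-sided) with p-values adjusted by Benjamini-Hochberg over 16089 genes. The study's own methods used limma-voom, which was run as an alternative (limma 3.58.1), as were DESeq2 1.42.0, the other scalings and filters, a block for the replicate number and fits without 1 mouse. An exact permutation test over mice served for the chain ratios. Gene lengths are merged exons. Mice of a genotype differed beyond sampling noise (chi-square per gene 26.9 to 153) and were counted separately. Intervals and floors cover counting error or the spread between these mice only.

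The collagens, their classes, the lists and the tests were chosen with earlier results of these data known. Every collagen that met the count rule could be named. Values in each mouse are given for the 3 most abundant of each class, the 12 with the largest changes among those called, any called higher and the chains of the ratios. From each processing list up to 4 genes with the smallest adjusted p were named, and some beyond these were chosen after their values were seen. Some cell type markers are not reported here and entered no list. On simulated counts, the test recovered 164 of 193 genes with a 4-fold change (85.0%) and made 17 false calls among 15688 genes. The 17 false calls stand beside 164 true ones. Few genes were changed in the simulation, as many upward as downward, while 29.0% of genes were called in the data. It therefore does not test the calls where many genes change and the TMM factors differ by genotype.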

Additional observations from a re-analysis of the deposited data

How the results depend on the processing

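The direction of all 21 collagens called lower was the same under each of the 15 alternatives that could be fitted for them, and the number called lower was 22 with DESeq2, without TMM and with ERCC scaling, 21 with limma-voom, upper-quartile scaling, dispersions without robust estimation and the replicate block, 19 with no filter beyond 1 count, 16 of 25 tested with at least 10 counts in every sample, and 20 to 22 with a mouse left out. The number called higher was 1 in the main test and 0 without TMM, with upper-quartile scaling, with ERCC scaling, with no filter beyond 1 count, with at least 10 counts in every sample and with the replicate block, and 0 to 1 with a mouse left out. The 1 gene called higher without SHMT2 fl/fl mouse 1 was Col5a3, not Col18a1. With at least 10 counts in every sample, 1 FACIT and 5 other collagens were called lower, since fewer of them were tested, and with no filter 3 fibrillar collagens were; for the latter the cause was not tested.

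Of 459 values of single collagens under an alternative, 426 kept direction and call, 16 lost the call, 6 gained it and 11 turned in sign. The 11 were these: without TMM Col11a2 (-0.15), Col5a3 (-0.15), Col27a1 (-0.080) and Col13a1 (-0.29), with ERCC scaling Col20a1 (-0.29), Col11a2 (-0.48), Col5a3 (-0.49), Col27a1 (-0.36), Col13a1 (-0.59) and Col18a1 (-0.24), and without SHMT2 fl/fl mouse 1 Col7a1 (0.042; -0.81 to 0.042 over the fits with a mouse left out). For scaling, the shift of all genes given above applies to each of them.

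The replicate numbers do not pair the mice: the correlations of deviations between mice of the same number were -0.03, 0.05 and -0.10. With the number as a block, 3584 of all genes were called in place of 4663, with 21 collagens lower and 0 higher. Depth limits the collagens under about 1 CPM, which rest on few counts in SHMT2 HKO livers.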

Other observations

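Col11a1, a cartilage fibrillar collagen that failed the count rule, had 17 counts in SHMT2 HKO mouse 1, 2 in SHMT2 fl/fl mouse 2 and 0 in the other 4 livers. The higher count rests on 1 liver and was not tested.

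Col24a1, a fibrillar collagen with fewer than 10 counts in each liver, had 3, 1 and 1 counts in SHMT2 fl/fl livers 1, 2 and 3 and 7, 3 and 8 in SHMT2 HKO livers 1, 2 and 3. Col28a1 had 26, 9 and 7 counts against 2, 2 and 8. Neither gene was tested, and both were noticed after their values were seen.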
